A study of Homo sapiens with 4 samples.

Results

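The 10 genes of mucus and goblet cells were followed in HT-29 cells, a human colorectal adenocarcinoma line, that carried a control vector or overexpressed the ubiquitin ligase TRIM40. They were picked by gene symbol from 27685 genes, with earlier results of these data known. The 10 are MUC1, MUC12, MUC13, MUC2, MUC5AC, MUC5B, TFF3, FCGBP, AGR2 and SPDEF. The condition called Control held cells labelled WT that had received no treatment and carried the control vector, and the condition called TRIM40 held untreated cells that stably overexpressed TRIM40 with a Myc tag at its amino terminus (Myc-TRIM40). Each condition had 2 libraries, 1 from each of 2 independent experiments, so experiment 1 and experiment 2 each gave a control and a Myc-TRIM40 library. Transduced cells were selected with puromycin according to the study's methods, and whether the selected cells were a pool or a clone is not given in the sources used here.

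Mucins are large O-glycosylated proteins that cover the gut epithelium. MUC1, MUC12 and MUC13 are anchored in the apical membrane, whereas MUC2, MUC5AC and MUC5B are secreted and form gels. MUC2 builds the mucus layer of the colon, while MUC5AC is typical of the stomach and airway surface and MUC5B of glands. TFF3, a trefoil peptide, and FCGBP, a large protein bound to mucus, are secreted by goblet cells together with MUC2. AGR2 is a protein disulfide isomerase of the endoplasmic reticulum that is needed for folding of gel-forming mucins, and SPDEF is an ETS-family transcription factor that drives goblet cell maturation.

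The libraries held between 60954602 and 67424698 reads, and all 10 genes passed the filter on low counts that left 14868 genes for testing. TRIM40 itself was at 0 reads in both controls, and Myc-TRIM40 cells had 272646 reads of it in experiment 1 against 110665 in experiment 2. With a floor of 3 reads per library, that is at least 88493-fold and at least 36556-fold higher. Epithelial markers were abundant in every library, with a summed level of EPCAM, KRT8, KRT18 and CDH1 between 13463 and 15909 TPM. The libraries of experiment 2 stood apart from each other by transcript length, as described with the results that this touches.

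No gene of the 10 passed the gene-wise test between Myc-TRIM40 and control vector. The test was edgeR's quasi-likelihood test with the experiment as a block and with Benjamini-Hochberg adjustment over all 14868 genes, and the adjusted p of the 10 genes lay between 0.888 and 0.988. Over all genes tested, 0.0605% passed, which is 9 genes, with 6 higher and 3 lower. With an unadjusted p under 0.05, 2 of the 10 genes were above control, where 3.41% of all genes were higher, and 0 were below. DESeq2 also called 0 of the 10, again with 2 at an unadjusted p under 0.05. The genes nearest to the threshold were FCGBP and MUC13. The fitted log2 fold change was above 0 for 7 genes and below 0 for 3, with a median of 0.24 where the median of all genes was 0.04. Neither held under every setting, though the fits with a library left out carried no block. Their values thus also carry the gap between the experiments. The median was 0.11 with the length trend taken out, 0.79 and 0.75 without the control library of experiment 1 or the Myc-TRIM40 library of experiment 2, and -0.40 and 0.04 without the Myc-TRIM40 library of experiment 1 or the control library of experiment 2. In experiment 1 the median log2 ratio of the 10 genes was 0.23 where that of all genes was 0.00, and in experiment 2 it was 0.31 where that of all genes was 0.03.

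The difference between the experiments exceeded that between the conditions in 8 of the 10 genes and in 71.6% of all genes tested, so that this was the state of the whole table. Within it, the secreted mucins MUC2, MUC5AC and MUC5B, and FCGBP, were lower in both libraries of experiment 2 than in both of experiment 1. Each of these 4 passed the test of that difference. In it the control and Myc-TRIM40 libraries of an experiment stood in for its replicates, after the mean difference of the conditions was removed. This comparison was chosen after the values had been seen. Its values, and its dependence on transcript length and on the settings, follow the account of the conditions.

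**Figure D1:**
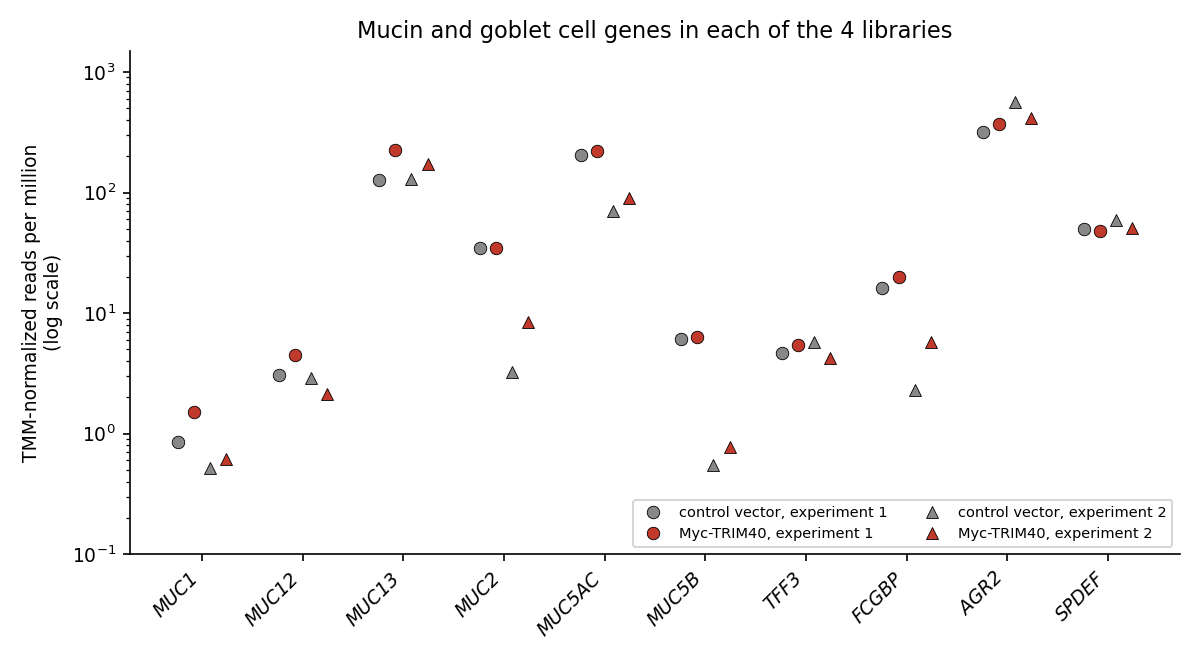
CPM of the 10 genes, which is reads scaled to a common library size by TMM (vertical axis, log scale) in each of the 4 libraries, with a point per library and no error bars. AGR2 lies between 318.2 and 566.6 CPM, while MUC2, MUC5AC, MUC5B and FCGBP are lower in both libraries of experiment 2.

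Per unit of transcript length, the genes kept a wide spread of levels. AGR2 was the most abundant, at 690.5 and 846.3 TPM in experiment 1 and 958.6 and 896.2 TPM in experiment 2, each time for control vector and then Myc-TRIM40. Its libraries did not overlap those of any other of the 10 genes. MUC13 was at 93.98, 176.1, 74.53 and 126.9 TPM in the same order, MUC5AC at 74.07, 82.57, 19.60 and 32.49 TPM, and SPDEF at 55.32, 55.91, 51.58 and 56.23 TPM. The ranges of MUC13 and MUC5AC overlapped, and that of SPDEF lay inside that of MUC5AC. TFF3 followed with 9.42, 11.6, 9.15 and 8.57 TPM, and MUC2 with 8.49, 9.02, 0.622 and 2.095 TPM. Those ranges overlapped too. The lowest levels were those of FCGBP, between 0.233 and 2.73 TPM, of MUC1, between 0.460 and 1.84 TPM, of MUC5B, between 0.0509 and 0.792 TPM, and of MUC12, between 0.281 and 0.610 TPM. These 4 overlapped each other throughout. As TPM is set within each library, these levels across experiments rest on separate normalizations.

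The genes lie on 7 chromosomes, here in hg19 coordinates of the deposited transcripts. MUC2 (chr11:1074875-1104416), MUC5AC (chr11:1151580-1222366) and MUC5B (chr11:1244295-1283406) are neighbours in a mucin cluster that begins with MUC6 and spans 270583 bases. MUC12 (chr7:100612904-100662230) and AGR2 (chr7:16832264-16844738) share chromosome 7 at a distance. The others are MUC1 (chr1:155158300-155162706), MUC13 (chr3:124624289-124653595), SPDEF (chr6:34505579-34524110), FCGBP (chr19:40353963-40440533) and TFF3 (chr21:43731777-43735706). Each count is the sum over the transcripts that the files list for the gene.

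Promoter sequence was available for 7 of the 10 genes, as the 250 bases before the RefSeq start on GRCh38.p14. MUC5AC, MUC5B and TFF3 were not among them. The promoters shown are those of MUC13, whose conditions did not overlap, of MUC2 and FCGBP, which differed most between the experiments among the 7, and of AGR2, the most abundant. Sequences read 5′ to 3′ along the gene's own strand and end at the base before the start. Capitals mark a match to a searched motif.
MUC13, chr3:124934752-124935001, minus strand: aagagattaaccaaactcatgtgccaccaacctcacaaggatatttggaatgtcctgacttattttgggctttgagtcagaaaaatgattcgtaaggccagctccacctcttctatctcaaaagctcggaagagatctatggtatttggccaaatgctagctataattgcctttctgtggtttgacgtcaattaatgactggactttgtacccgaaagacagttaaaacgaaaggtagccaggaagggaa
MUC2, chr11:1074624-1074873, plus strand: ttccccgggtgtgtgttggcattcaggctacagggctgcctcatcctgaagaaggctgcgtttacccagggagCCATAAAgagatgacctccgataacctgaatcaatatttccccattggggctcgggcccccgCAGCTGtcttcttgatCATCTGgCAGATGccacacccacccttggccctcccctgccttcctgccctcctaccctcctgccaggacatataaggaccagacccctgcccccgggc
FCGBP, chr19:39934635-39934884, minus strand: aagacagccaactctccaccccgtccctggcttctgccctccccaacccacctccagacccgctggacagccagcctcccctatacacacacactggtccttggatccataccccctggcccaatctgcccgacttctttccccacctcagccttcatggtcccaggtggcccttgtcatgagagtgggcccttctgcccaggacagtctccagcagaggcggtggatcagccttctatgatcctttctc
AGR2, chr7:16805000-16805249, minus strand: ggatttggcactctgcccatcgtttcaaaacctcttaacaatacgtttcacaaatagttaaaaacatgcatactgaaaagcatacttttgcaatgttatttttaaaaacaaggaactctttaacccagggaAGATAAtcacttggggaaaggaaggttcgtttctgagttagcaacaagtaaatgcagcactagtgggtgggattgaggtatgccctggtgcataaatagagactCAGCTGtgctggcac

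Short cores of intestinal and interferon-related factors were searched on both strands, and their share was taken over 35116 promoters of the same length. The forkhead core was searched as TGTTTAC, the core of the GATA family as AGATAA and the core of the CDX factors as TTTATGG. Among the E-boxes, CAGCTG was searched first, followed by the related motif CAGATG. The STAT core was searched as TTCNNNGAA, whereas the interferon response core was searched as GAAANNGAA. The MUC2 promoter held the CDX core on the opposite strand, 177 bases before the start, a match found in 2.30% of all promoters. It also held CAGCTG, 115 bases before the start, and CAGATG at 99 bases on the opposite strand and at 92 bases, motifs that 13.99% and 12.2% of promoters held. AGR2 held AGATAA at 119 bases, as 9.17% of promoters did, and CAGCTG at 15 bases. CAGCTG was also present for MUC1, 201 bases before the start. None of these letters were found in the windows of MUC13, SPDEF, MUC12 and FCGBP. The forkhead, STAT and interferon response cores, held by 2.98%, 6.57% and 6.88% of promoters, were in none of the 7 windows. CAGCTG reads the same on both strands, and the motifs in MUC2 did not overlap each other.

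Among the membrane mucins, MUC13 was the gene whose conditions did not overlap. MUC13, a transmembrane mucin abundant in colon epithelium, had 7735 reads with control vector and 14216 with Myc-TRIM40 in experiment 1, and 8215 and 10993 reads in experiment 2. In CPM, the scale used for comparing a gene across libraries, that was 126.7 and 226.7 in experiment 1 and 128.9 and 170.9 in experiment 2. Both Myc-TRIM40 libraries were above both control libraries, and the controls of the 2 experiments were close to each other. A state of TRIM40 above Control without overlap was reached by 1 of the 10 genes and by 11.0% of all genes tested. The ratio was 1.79 in experiment 1, with a 95% counting interval of 1.74 to 1.84, and 1.33 in experiment 2, with an interval of 1.29 to 1.36. These exact intervals cover counting error only, not the spread between cultures. The fitted log2 fold change was 0.62 with a standard error of 0.23, and the adjusted p of edgeR's quasi-likelihood test after Benjamini-Hochberg adjustment was 0.888, from an unadjusted p of 0.0242.

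MUC1, a signalling mucin of most glandular epithelia, was sparse. It had 52 and 95 reads in experiment 1, then 33 and 40 reads in experiment 2, each pair being control vector then Myc-TRIM40. Myc-TRIM40 exceeded the control of its own experiment each time, although the conditions overlapped across experiments. Its ratio was 1.78 in experiment 1, with a counting interval of 1.26 to 2.54, and 1.20 in experiment 2, with an interval of 0.739 to 1.97 that includes no difference. The files list 20 transcripts of MUC1, of which 5 had reads, and the transcripts that received them changed between libraries. The 1811-base transcript took 92.3% of MUC1 reads in the control library of experiment 1 and 66.3% in its Myc-TRIM40 library, but 0% and 12.5% in experiment 2. The 1838-base transcript took 100% in the control library of experiment 2, and the 1146-base transcript 67.5% in its Myc-TRIM40 library. With so few reads, the assignment of reads to transcripts within MUC1 is uncertain.

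MUC12, a very large membrane mucin of the colon, had 189 and 280 reads in experiment 1, then 186 and 138 reads in experiment 2. It was thus above its control in experiment 1, with a ratio of 1.44 and an interval of 1.20 to 1.74, and below it in experiment 2, with a ratio of 0.735 and an interval of 0.586 to 0.921. The experiments went opposite ways beyond counting error, and the fitted log2 fold change was 0.05 with a standard error of 0.33. A gene listed as LOC102724094 (chr7:100657601-100660889, hg19) overlaps MUC12 and had 71, 76, 159 and 55 reads in the same order of libraries. The library kit marks strand, but whether the counting used it is not given in the sources used here, so reads of the pair could have been shared.

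The gel-forming mucins were close to their controls in experiment 1 and above them in experiment 2. MUC2 had 2098 reads with control vector and 2187 with Myc-TRIM40 in experiment 1, against 206 and 545 reads in experiment 2. The ratio was 1.02 in experiment 1, with a counting interval of 0.956 to 1.08, and 2.62 in experiment 2, with an interval of 2.23 to 3.09. Yet the Myc-TRIM40 library of experiment 2 remained below the control library of experiment 1, at 8.48 against 34.4 CPM. MUC5AC, by far the most read of the gel-forming mucins in these cells, had 12571 and 13741 reads in experiment 1, then 4455 and 5803 in experiment 2. Its ratios were 1.06, with an interval of 1.04 to 1.09, and 1.29, with an interval of 1.24 to 1.34. Both were small beside the gap between the experiments. MUC5B had 371 and 399 reads in experiment 1, then 35 and 50 in experiment 2, with ratios of 1.05 and 1.42 whose intervals, 0.907 to 1.21 and 0.901 to 2.25, both include no difference. The fitted log2 fold changes were 0.68 for MUC2, 0.23 for MUC5AC and 0.25 for MUC5B, with standard errors of 0.33, 0.22 and 0.29. Within experiment 2, long transcripts as a whole were above control. The median log2 ratio was 0.34 for genes of 4 to 8 kb, where MUC5AC was at 0.37, and 0.67 for genes over 8 kb, where MUC5B was at 0.50 and MUC2 at 1.39. With the length trend taken out, the fitted log2 fold change was 0.00 for MUC5AC, -0.18 for MUC5B and 0.37 for MUC2. A microRNA gene that overlaps MUC5B, MIR6744, had 0 reads in all 4 libraries.

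The secreted partners of MUC2 differed from each other. FCGBP, a large secreted protein of mucus, had 979 and 1254 reads in experiment 1, then 147 and 372 reads in experiment 2. Its ratios were 1.25, with a counting interval of 1.15 to 1.36, and 2.51, with an interval of 2.07 to 3.06. Myc-TRIM40 was above control in each experiment, but the conditions overlapped across experiments as for MUC2. The fitted log2 fold change of FCGBP was 0.80 with a standard error of 0.28, and its unadjusted and adjusted p by edgeR's quasi-likelihood test after Benjamini-Hochberg adjustment were 0.0213 and 0.888. The log2 fold change was 0.34 with the length trend taken out. Without the Myc-TRIM40 library of experiment 1 it was -0.66, and without the control library of experiment 2 it was -0.31. The fits with a library left out carried no block, so their values also carry the gap between the experiments. TFF3, a repair peptide of goblet cells, had 285 and 344 reads in experiment 1, then 370 and 272 reads in experiment 2. The ratios of TFF3, 1.18 and 0.729, pointed opposite ways, with intervals of 1.00 to 1.38 and 0.621 to 0.854. Its fitted log2 fold change was -0.11 with a standard error of 0.27.

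AGR2 and SPDEF, the folding factor and the transcription factor, were well covered. AGR2 had 19427 and 23347 reads in experiment 1, then 36110 and 26529 reads in experiment 2. Its ratio was 1.17 in experiment 1, with an interval of 1.15 to 1.19, and 0.728 in experiment 2, with an interval of 0.717 to 0.740, so the direction turned with the experiment. SPDEF had 3027 and 3000 reads in experiment 1, then 3781 and 3239 reads in experiment 2. It was the gene below its control each time, with ratios of 0.965 and 0.849, although the interval of the first, 0.917 to 1.02, includes no difference and that of the second, 0.810 to 0.890, does not. A single 1914-base transcript held between 93.6% and 96.1% of SPDEF reads in every library. The fitted log2 fold changes were -0.12 for AGR2 and -0.14 for SPDEF, with standard errors of 0.23 and 0.21.

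**Figure D2:**
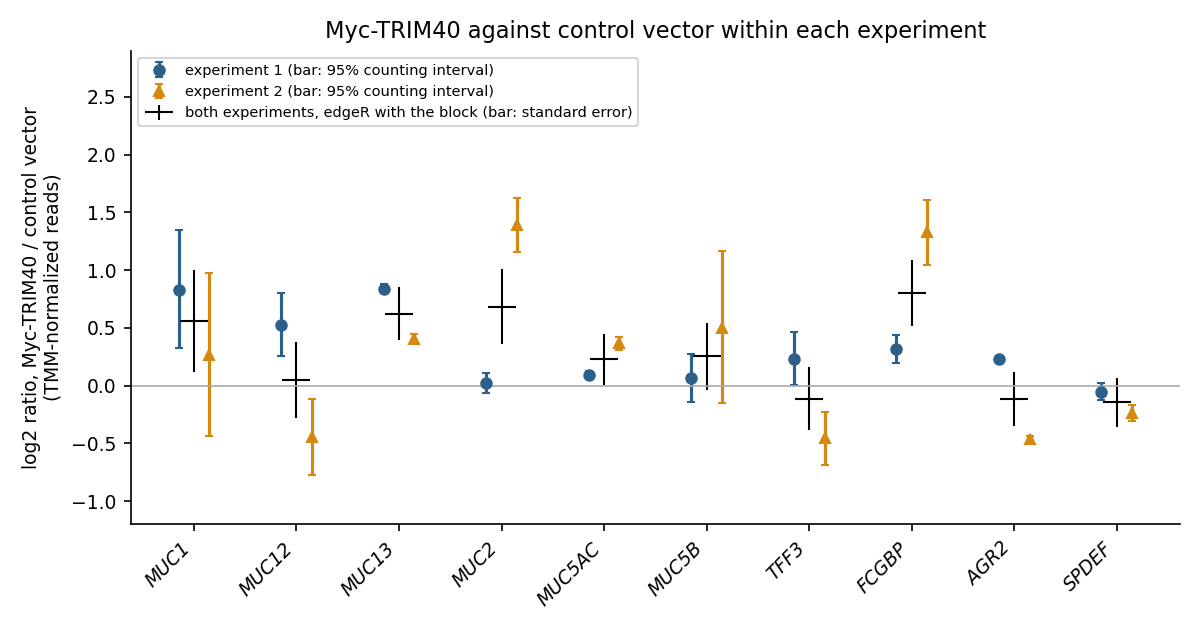
Log2 ratio of Myc-TRIM40 to control vector for each gene, per experiment with the 95% counting interval, and fitted over both experiments with the standard error. MUC13 is above 0 in both experiments, MUC12, TFF3 and AGR2 change sign between them, and MUC2 and FCGBP are furthest above 0 in experiment 2.

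By a ratio of FPKM + 1 of at least 1.5 within an experiment, 1 of the 10 genes passed in experiment 1 and 0 passed in experiment 2. The 1 was MUC13, at 1.81, and 1.66% of all genes were higher by this measure in experiment 1. In experiment 2, where 4.71% of all genes were higher, MUC2 at 1.48 and MUC13 at 1.44 came nearest. None passed in both experiments, against 0.311% of all genes. The added 1 FPKM shrinks the ratio of genes as low as MUC1, MUC5B, MUC12 and FCGBP, and of MUC2 in experiment 2. There MUC2 had 0.343 and 0.983 FPKM, and its read ratio of 2.62 became 1.48. FCGBP had 0.129 and 0.353 FPKM there, and its read ratio of 2.51 became 1.20. That neither passed in experiment 2 thus depends on the added 1 FPKM.

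Between the experiments, the CPM of MUC2 went from 34.4 and 34.9 in experiment 1 to 3.23 and 8.48 in experiment 2, each pair being control vector then Myc-TRIM40. Those of MUC5AC went from 205.9 and 219.2 to 69.9 and 90.2, and those of MUC5B from 6.08 and 6.36 to 0.549 and 0.778. FCGBP went from 16.04 and 20.001 to 2.31 and 5.78. In these 4 genes the control libraries lay 10.6-fold, 2.95-fold, 11.1-fold and 6.95-fold apart, and the Myc-TRIM40 libraries 4.12-fold, 2.43-fold, 8.18-fold and 3.46-fold. In all, 6 of the 10 genes were lower in both libraries of experiment 2 than in both of experiment 1, as 33.0% of all genes were, and 2, AGR2 and SPDEF, were higher in both, as 30.2% of all genes were.

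In the same edgeR fit, 4 of the 10 genes were lower in experiment 2 at an adjusted p under 0.05, where 0.397% of all genes were lower. The p-values of this test rest on what remains once the mean difference of the conditions is removed. That is how far this difference disagreed between the experiments, with 1 residual and 7.44 prior degrees of freedom. They do not measure the spread between repeats of an experiment, as neither experiment was repeated. The log2 difference was -2.71 for MUC2, with a standard error of 0.34 and an adjusted p of 0.0279 by edgeR's quasi-likelihood test after Benjamini-Hochberg adjustment. For MUC5AC, MUC5B and FCGBP the log2 differences were -1.42, -3.24 and -2.28, with standard errors of 0.22, 0.31 and 0.29 and adjusted p of 0.0445, 0.00596 and 0.0316. The remaining genes did not pass: MUC1 differed by -1.01 (adjusted p 0.177 by the same edgeR test), MUC12 by -0.57 (0.279), MUC13 by -0.19 (0.610), TFF3 by -0.03 (0.953), SPDEF by 0.17 (0.634) and AGR2 by 0.49 (0.201). The median log2 difference of the 10 genes was -0.79 where that of all genes was -0.03.

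The calls of this difference did not hold under every setting. The direction held, but both libraries of experiment 2 lay below both of experiment 1, so it could hardly turn. Over 11 fits the log2 difference was between -3.42 and -1.98 for MUC2, between -1.60 and -1.098 for MUC5AC, between -3.50 and -2.24 for MUC5B and between -2.96 and -1.33 for FCGBP. The unadjusted p of edgeR or DESeq2 in those fits was at most 0.00998, 0.00344, 0.00184 and 0.00912, and the adjusted p reached 0.355, 0.430, 0.355 and 0.355. Without the Myc-TRIM40 library of experiment 1, MUC5B alone of the 4 kept its call. Without the control library of experiment 2, MUC2 alone did, and the log2 difference was -1.98 for MUC2, -1.59 for FCGBP and -1.19 for MUC5AC. Without the Myc-TRIM40 library of experiment 2, it was -3.42 for MUC2 and -2.96 for FCGBP. In bulk RNA, fewer cells making a mucin and less of its RNA per cell cannot be told apart. The experiment also cannot be told apart from the culture, the extraction or the sequencing run it came with.

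Transcript length moved with these differences over all genes. From experiment 1 to experiment 2, the median log2 difference was 0.31 for 1370 genes under 1 kb and -0.72 for 740 genes over 8 kb. Within experiment 2, the median log2 ratio of Myc-TRIM40 to control was -0.55 and 0.67 in the same groups, whereas in experiment 1 it was -0.05 and 0.04. Long transcripts were thus lowest, on the median, in the control library of experiment 2. Lengths are those of the deposited transcripts. MUC2 (8634 bases), MUC12 (16321), FCGBP (16390) and MUC5B (17916) are over 8 kb. MUC5AC (5930) is next in length, while AGR2 (983) and TFF3 (1054) are the shortest.

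Set against genes of like length, the 10 genes sorted as follows. Within experiment 2, the ratios of MUC1, TFF3, SPDEF, AGR2, MUC5AC and MUC5B lay between the 10th and 90th percentiles of their length groups. MUC2 and FCGBP, at log2 ratios of 1.39 and 1.32, were above the 90th percentile of genes over 8 kb, which was 1.17, and MUC12, at -0.44, was below the 10th, which was 0.12. MUC13, at 0.41, lay under the 90th percentile of its group, 0.56. Between the experiments, MUC2, MUC5B and FCGBP were below the 10th percentile of genes over 8 kb, -1.43. MUC5AC, at -1.42, was below that of its group, -0.997, but just above that of genes over 8 kb. MUC1, at -1.01, was below that of genes of 1 to 2 kb, -0.56. The groups rest on the deposited transcript lengths, which were not checked against other gene models. The part of length in these results was examined by taking each library's trend on length out.

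With the length trend taken out, a setting chosen after seeing the data, the differences were smaller for MUC2, FCGBP and MUC5AC, nearly the same for MUC13 and larger for MUC1. The fitted log2 fold change between conditions was 0.67 for MUC1, up from 0.56, and 0.59 for MUC13. It was 0.37 for MUC2, 0.34 for FCGBP, 0.00 for MUC5AC and -0.06 for SPDEF. It turned to -0.18 for MUC5B and -0.42 for MUC12, and to 0.11 for both TFF3 and AGR2. None of the 10 was called, with an adjusted p of 0.841 for MUC13 by edgeR's quasi-likelihood test after Benjamini-Hochberg adjustment and 1 gene, MUC13, at an unadjusted p under 0.05. Between the experiments MUC2, MUC5AC, MUC5B and FCGBP still differed by -2.17, -1.098, -2.24 and -1.33 on the log2 scale, each with an adjusted p of 0.0554 by the same test. MUC12 turned from -0.57 to 0.39.

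**Figure D3:**
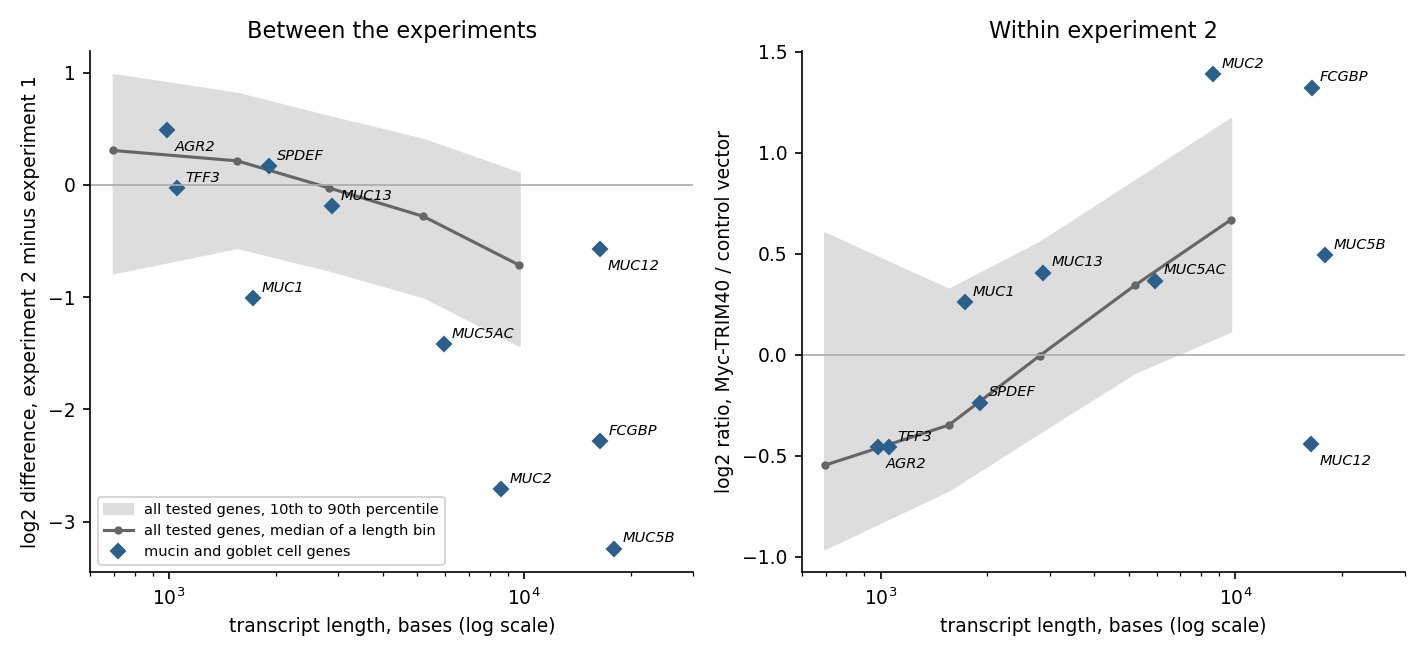
Log2 differences against transcript length (log axis) for the 10 genes (diamonds), with the median and the 10th to 90th percentile of all tested genes per length group, between the experiments and within experiment 2. Long genes were lower in experiment 2, with a median of -0.72 over 8 kb, and MUC2, MUC5B and FCGBP lie below the band of their group.

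Around these genes, 83 others of 8 lists were counted, of which 61 could be tested and 0 passed edgeR's quasi-likelihood test after Benjamini-Hochberg adjustment. An unadjusted p under 0.05 was found for 4 higher genes and 1 lower gene. Of all 14868 genes tested, 507 (3.41%) were higher and 168 lower at that level, which is the background for each list below. Among 11 other mucins, 5 were tested, with 0 at an unadjusted p under 0.05 and a median log2 fold change of 0.30. MUC3A, a membrane mucin of the intestine, had 3082 and 3211 reads in experiment 1, then 2773 and 3034 in experiment 2. MUC20 had 2784, 3272, 1809 and 2433 reads in the same order. MUC17, another intestinal membrane mucin, had 70, 158, 12 and 20 reads. It was above its control in each experiment and low in both libraries of experiment 2, with a log2 difference of -2.82 between the experiments (adjusted p 0.0456 by the edgeR test). It was the only gene of the 83 to pass that test, where 0.397% of all genes were lower. MUC17 is 14350 bases long, and genes over 8 kb had a median log2 difference of -0.72 and a 10th percentile of -1.43. All 5 tested mucins of this list were lower in experiment 2. Their median log2 difference was -2.32, where that of all genes was -0.03. MUC4, which lay at that median and was named after its values were seen, had 33, 26, 5 and 7 reads. MUC7, MUC19 and MUC22 had 0 reads in every library.

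Of 10 other secreted goblet cell products, 7 were tested, with 0 at an unadjusted p under 0.05 and a median of -0.07. REG4, a lectin of secretory cells, had 2080 and 2422 reads in experiment 1, then 2012 and 1909 in experiment 2. AGR3, the paralog of AGR2, had 442, 690, 1064 and 782 reads, which is higher than control in experiment 1 and lower in experiment 2, as for AGR2. Both are under 1 kb, where the median log2 ratio in experiment 2 was -0.55, and each was at -0.46. KLK1 had 156, 176, 169 and 140 reads and SPINK4 25, 24, 47 and 45. CLCA1, a protease abundant in goblet cell mucus, was at 0 reads in all 4 libraries. The summed level of this list was between 88.7 and 111.7 TPM. The label goblet cell genes is thus used for the 10 genes, and not for the cells.

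Regulators of the secretory lineage and of mucus secretion, 12 genes and all tested, had a median log2 fold change of -0.02. KLF4, a Krüppel-like factor needed for colonic goblet cells, was the 1 at an unadjusted p under 0.05. It had 884 and 2069 reads in experiment 1, then 861 and 1120 in experiment 2. Both Myc-TRIM40 libraries were thus above both controls, as for 11.0% of all genes tested. The log2 fold change of KLF4 was 0.78 with a standard error of 0.26, and its adjusted p by edgeR's test was 0.888. FOXA3 had 540, 936, 554 and 557 reads, HES1, the Notch target that represses secretory fate, 1508, 1820, 3253 and 2283, and XBP1, a factor of the unfolded protein response, 12444, 14867, 19957 and 16227. ELF3 and CREB3L1 had fitted log2 fold changes of 0.01 and 0.11. Of the 12 regulators, 6 had a fitted value above 0 and 6 below.

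The enzymes of mucin O-glycosylation were 24, of which 22 were tested, and 2 above control and 1 below it had an unadjusted p under 0.05, with a median of 0.05. The lower gene was C1GALT1C1, the chaperone that the core 1 galactosyltransferase needs, with 1717 and 279 reads in experiment 1, then 3938 and 3018 in experiment 2. Its log2 fold change was -1.50 with a standard error of 0.48. The difference was larger in experiment 1 than in experiment 2, and the gene had an adjusted p of 0.888 by edgeR's test. ST3GAL1, a sialyltransferase that caps core 1 glycans, had 41417 and 51482 reads in experiment 1, then 18235 and 30720 in experiment 2, with a log2 fold change of 0.51 and a standard error of 0.21. The other higher gene was GALNT5, which was named after its values were seen, with 142, 293, 159 and 212 reads. GALNT5 is 10479 bases long, and its log2 ratio in experiment 2, 0.40, was under the median of genes over 8 kb, 0.67. ST3GAL1, of 6827 bases, was at 0.74 in experiment 2, where the median of genes of 4 to 8 kb was 0.34. GALNT3, GALNT6 and GCNT3, which start or branch the O-glycans, had fitted log2 fold changes of 0.03, 0.43 and 0.05.

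Markers of other lineages were counted in the same libraries. Of 11 absorptive colonocyte markers, 6 were tested and all 6 had a fitted log2 fold change above 0. Their median was 0.08, where that of all genes was 0.04, and 1 had an unadjusted p under 0.05 by edgeR. That was CDHR5, a brush border protocadherin, with 1310 and 2886 reads in experiment 1, then 1000 and 1256 in experiment 2. KRT20 had 14050, 24901, 15407 and 16765 reads, VIL1 13516, 11937, 9389 and 11609, and FABP1 82, 128, 107 and 81. The log2 ratios of FABP1, VIL1, CA2 and GUCA2A changed sign between the experiments, whereas KRT20 and CDHR5 were above control in both. CA2 and GUCA2A were named after their values were seen. The summed level of the list was between 333.4 and 699.8 TPM, with SLC26A3 and AQP8 at 0 reads. Of 6 enteroendocrine markers, 3 were tested, with 0 at an unadjusted p under 0.05, a summed level between 0.536 and 1.87 TPM, and CHGB and NEUROD1 at 0 reads. NEUROG3 had 42, 58, 18 and 19 reads, INSM1 6, 12, 4 and 23, and SCG2 12, 7, 13 and 16.

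The epithelial and non-epithelial markers were counted as a check of the cells. EPCAM had 34583 and 36682 reads in experiment 1, then 74031 and 51490 in experiment 2, KRT8 379698, 436262, 553350 and 448620, and KRT18 219118, 252885, 374217 and 282904. CDH1 had 27440, 27549, 16715 and 24386 reads. All 4 were tested, with 0 at an unadjusted p under 0.05. Of 5 non-epithelial markers, 2 were tested, COL1A1 with 226, 352, 123 and 148 reads and PECAM1 with 17, 31, 21 and 27. PTPRC, which marks leukocytes, had at most 4 reads in a library, COL1A2 and CD3E had 0, and the list summed to between 0.661 and 2.36 TPM.

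**Figure D4:**
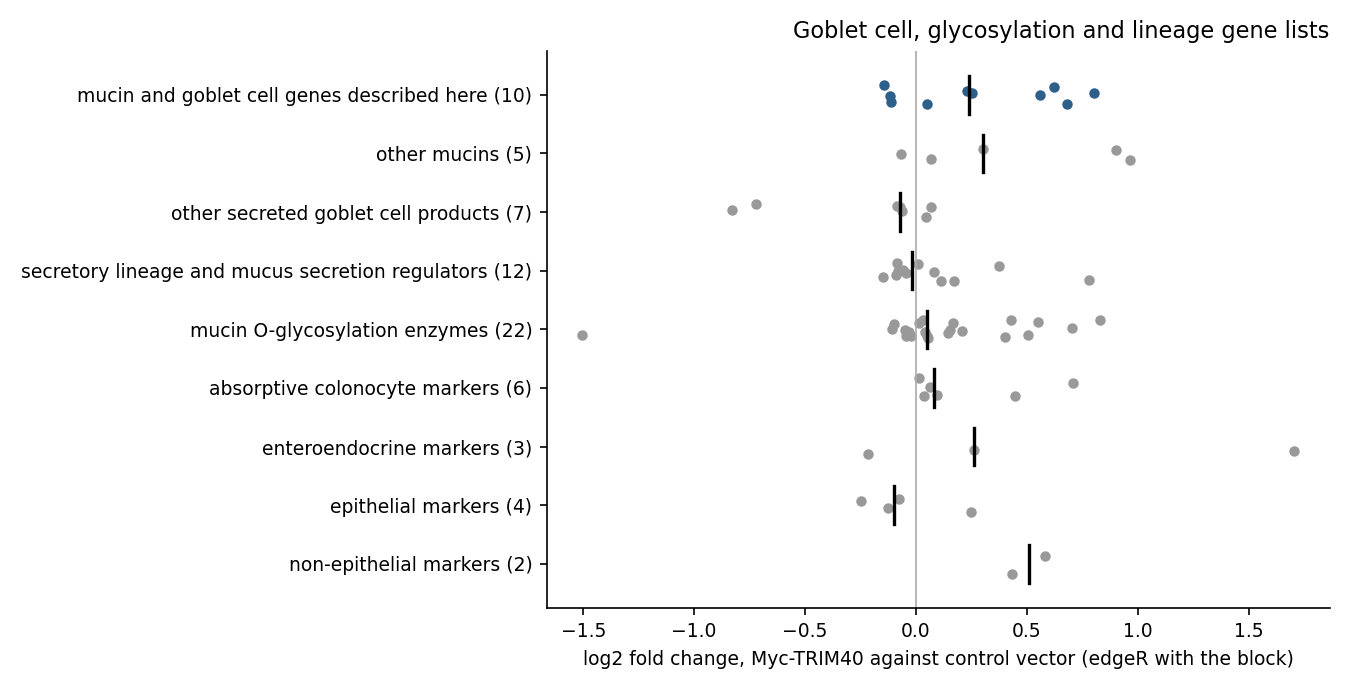
Fitted log2 fold change of Myc-TRIM40 against control vector for each tested gene of the 10 and of the 8 other lists (points), with the list's median. The medians lie between -0.10 for the epithelial markers and 0.51 for the non-epithelial markers, and no gene passed the adjusted test.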

How the data were processed

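RNA was measured in 4 libraries of HT-29 cells, 2 per condition, made with a stranded TruSeq mRNA kit. The authors deposited, per RefSeq transcript, counts of reads that were not normalized. The authors also deposited FPKM, in which counts are divided by the length of the transcript and the library's total, and for experiment 2 TPM. For experiment 1, TPM was calculated from FPKM. The same computation for experiment 2 differed from the deposited TPM by at most 0.00061. The submitters' processing notes name HISAT2 2.1.0, StringTie 1.3.4d and hg19. Their roles and the strand setting are not given in the sources used here.

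The 63714 transcripts were summed to 27685 genes. edgeR 4.0.16 (R 4.3.3; glmQLFit, glmQLFTest, TMM, filterByExpr) tested 14868 genes at an adjusted p of 0.05, with the replicate number as a block. Each deposited file held the control and the Myc-TRIM40 library of 1 experiment, and same-numbered libraries deviated together with a correlation of 0.45. The fit had 1 residual and 7.44 prior degrees of freedom and a common dispersion of 0.0484. Log2 ratios within an experiment had 0.5 reads added, and counting intervals of ratios were exact at 95%. The 2 libraries per condition limit precision. The smallest two-sided p of an exact permutation test at this size is 0.333 if libraries are shuffled across the experiments. Shuffling only within each experiment, as the block would require, leaves fewer arrangements and a higher smallest p.

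On simulated counts with 200 changed genes among 14881 tested, the condition test found 104 of 107 genes changed 4-fold and 23 of 93 changed 2-fold, with 8 false calls. Alternatives were no block, DESeq2 1.42.0, upper-quartile scaling, no filter, limma 3.58.1 on log2(FPKM + 1) or log2(FPKM + 0.1), the most-read transcript only, each library or experiment left out and, for the 1.5-fold rule, other pseudocounts, thresholds and units. Python 3.11.15 with pandas 2.3.3, numpy 2.4.6 and scipy 1.17.1 did the rest.

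The 10 genes and the 8 lists were chosen with earlier results of these data known. Named genes were the 10, TRIM40, overlapping genes, any list gene past the threshold and, per list, up to 3 genes with the highest mean FPKM and up to 3 with the largest fold change at a mean FPKM of at least 1. Genes outside this rule named for 0 reads or for a count were chosen after their values were seen, as were the comparison of experiments and the length correction.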

Additional observations from a re-analysis of the deposited data

How the results depend on the processing

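Of the 10 genes, 0 were called between the conditions under every alternative with a test that kept all libraries. MUC13 kept its direction under all 14 of its alternatives, but its conditions did not overlap, so it could hardly turn. Over all genes, 6 were called higher and 3 lower. Without the replicate block the counts were 0 and 0 (128 and 25 at an unadjusted p under 0.05 by edgeR), with DESeq2 44 and 9, without the filter 0 and 0 (343 and 104), with limma on log2(FPKM + 1) 0 and 0 (630 and 178), on log2(FPKM + 0.1) 1 and 0 (524 and 164), with the most-read transcript 0 and 0 (222 and 113), and with the length trend taken out 1 and 0 (331 and 291). The median log2 fold change of the 10 genes, 0.24, was 0.15 without the block, 0.13 with limma on log2(FPKM + 1) and 0.11 with the length trend taken out. With the length trend taken out, MUC5B turned to -0.18, MUC12 to -0.42, TFF3 to 0.11 and AGR2 to 0.11. The 1.5-fold rule in both experiments was met by 0 genes, by 1 with a pseudocount of 0.1 (MUC1) and by 1 with TPM (MUC13), and by 0 and 1 with a single experiment.

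Leaving out a library gave 8 to 97 genes higher and 4 to 19 lower. With a library or an experiment left out, the median of the 10 genes ranged from -0.40 to 0.79. The log2 fold change ranged from -0.14 to 1.14 for MUC1, from -1.15 to 2.69 for MUC2, from -0.61 to 1.10 for MUC5AC, from -2.09 to 2.64 for MUC5B, from -0.49 to 0.57 for MUC12, from -0.46 to 0.23 for TFF3, from -0.57 to 0.33 for AGR2, from -0.31 to 0.0081 for SPDEF and from -0.66 to 2.43 for FCGBP. The fits without a library carried no block, so a library of 1 experiment was set against both of the other condition, and a lone library was assumed to vary like the other group.

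Between the experiments, 79 genes and 4 of the 10 were called. The counts were 0 and 0 without a condition term (4100 and 4 at an unadjusted p under 0.05 by edgeR), 1908 and 4 with DESeq2, 15 and 1 with upper-quartile scaling, 0 and 0 without the filter (3741 and 4), 0 and 0 with the most-read transcript (2024 and 5), 0 and 0 with the length trend taken out (5254 and 5), and 18 to 5374 and 1 to 5 with a library left out. The fits with a library left out also carried no condition term. Apart from the length correction, the cause of these changes in the counts was not tested. With 2 libraries per condition, the test found few changes of 2-fold in simulated counts, so a change of that size can be missed here.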

Other observations

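MUC6, the gel-forming mucin at the other end of the chromosome 11 cluster, had 4 and 20 reads in experiment 1, then 0 and 0 reads in experiment 2, each pair being control vector then Myc-TRIM40, too few to be tested. ATOH1, the transcription factor that commits intestinal cells to the secretory lineage, had 223 and 143 reads in experiment 1, then 83 and 126 reads in experiment 2, so its direction turned with the experiment. MUC16, a membrane mucin, had 37 and 58 reads in experiment 1, then 0 and 2 in experiment 2. These 3 genes were named after their values were seen.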
